A study of Mus musculus with 9 samples.

Results

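The acyl-CoA thioesterase (Acot) family was followed in brown adipose tissue (BAT) of mice held in the cold, across 3 groups of 3 RNA-seq libraries each. The 10 genes described here, Acot1, Acot2, Acot3, Acot4, Acot5, Acot7, Acot9, Acot11, Acot12 and Acot13, were selected by gene symbol from 16937 genes listed in any of the 3 deposited tables, and all 10 had reads in all 9 libraries. Acot5 was already known to be among the largest rises of WT Cold against WT RT when the family was chosen, so the values of that comparison, and of GCN2 KO Cold against WT RT, chose the members and are given below as a description with no test, where a call says only that a member passed the thresholds set for all genes. All mice were adults of 12 to 23 wk on the C57Bl/6J background, housed singly for 5 days before the experiment. WT RT mice were wild type and stayed at 23 °C, and WT Cold mice were wild type and spent 8 h at 4 °C. GCN2 KO Cold mice carried a whole-body Gcn2-/- deletion, which removes the amino acid sensing kinase GCN2, and were also held 8 h at 4 °C. Males and females were used and the labels give no sex per library, and knockout mice at room temperature were not analysed here. The 3 libraries of a group are called A, B and C, which only names them.

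Acyl-CoA thioesterases split a fatty acyl-CoA into a free fatty acid and coenzyme A, the reverse of the activation step run by acyl-CoA synthetases. The type I enzymes ACOT1 to ACOT6 share an alpha/beta-hydrolase fold and are related proteins sent to different compartments, with ACOT1 in the cytosol, ACOT2 in the mitochondrial matrix and ACOT3, ACOT4 and ACOT5 in peroxisomes. The type II enzymes (ACOT7, ACOT9, ACOT11, ACOT12 and ACOT13) share a hotdog fold. In BAT, ACOT11 is also called Them1 or brown-fat-inducible thioesterase and acts on long-chain acyl-CoA near lipid droplets, and ACOT13, also called Them2, is found with mitochondria. Several type I genes are textbook targets of the fatty acid receptor PPARα.

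Acot2, Acot1, Acot4, Acot3 and Acot5 lie side by side on chromosome 12, with Acot6 as the last gene of the row, within 123.489 kb of GRCm38 (chr12:83987861-84111349, all on the plus strand). Because a read is assigned by the bases in which these copies differ, the coding sequences were compared first. Acot1 and Acot2 were identical at 95.5% of 1239 aligned coding bases and shared an unbroken run of 273 bases. Acot3 and Acot5 were identical at 85.4%, and Acot1 and Acot5 at 83.2%. Acot4 and Acot6 stood farther off, at 73.7% to 76.5% from any of the others. The stretch in which the 6 genes were most alike is shown to make the point, since it was letter for letter the same in all of them. In Acot1 it lies in exon 1, at chr12:84009705-84009764 of GRCm38, and in Acot5 in exon 1 at chr12:84069662-84069721.
Shared by Acot1 to Acot6: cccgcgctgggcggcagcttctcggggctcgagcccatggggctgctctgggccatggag
The stretch in which they were least alike, in the last coding exon, follows with capitals at each base that differs from Acot1.
Acot2 at chr12:83992946-83993005: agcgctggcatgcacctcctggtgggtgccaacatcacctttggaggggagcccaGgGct
Acot1 at chr12:84017224-84017283: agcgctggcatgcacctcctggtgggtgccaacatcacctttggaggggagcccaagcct
Acot4 at chr12:84043641-84043700: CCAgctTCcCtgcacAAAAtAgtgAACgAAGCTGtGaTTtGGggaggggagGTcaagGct
Acot3 at chr12:84058871-84058930: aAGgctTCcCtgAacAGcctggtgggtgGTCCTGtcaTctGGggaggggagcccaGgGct
Acot5 at chr12:84075754-84075813: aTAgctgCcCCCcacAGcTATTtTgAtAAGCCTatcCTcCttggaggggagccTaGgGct
Acot6 at chr12:84109384-84109443: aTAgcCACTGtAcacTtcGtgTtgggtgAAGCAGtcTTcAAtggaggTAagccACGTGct
Even there Acot2 differed from Acot1 at 2 of 60 bases, while Acot5 differed at 26 and Acot4 at 28.

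**Figure D1:**
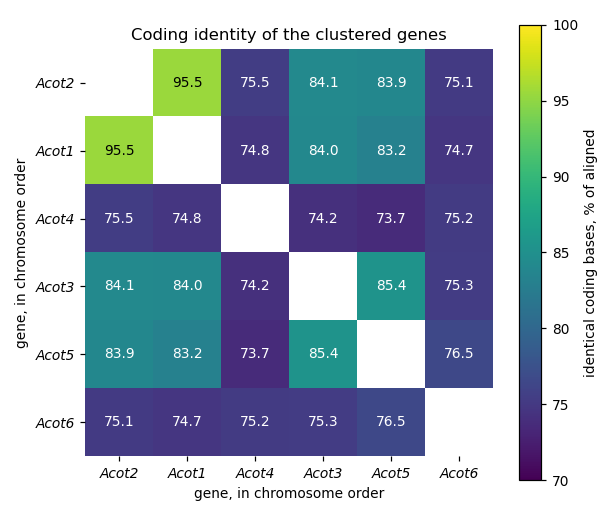
Identity between the coding sequences of the 6 clustered genes, as the percentage of aligned bases that are the same, with genes on both axes in chromosome order. Acot1 with Acot2, at 95.5%, is the closest pair, and the rest range from 73.7% to 85.4%.

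A read of 150 bases could still be placed for most of each transcript. In Acot1, 12.4% of the 150-base windows of its transcript also occurred, without a mismatch, in a transcript of another gene, against 10.2% in Acot2, 13.5% in Acot3, 7.73% in Acot4 and 3.36% in Acot5. Acot11 shared 21.7% of its windows with Fam151a, a gene that overlaps it on the opposite strand, and Acot7, Acot9, Acot12 and Acot13 shared none at this length. The authors counted only uniquely mapped reads. How many read pairs this left out of each gene was not tested, since a mate outside a shared window can place the pair. Acot3 and Acot4 also overlap a long antisense transcript, 4732463B04Rik, the only other gene to hold 150-base windows of Acot4. Both overlap Gm49366 too, a protein-coding gene on the same strand that shared such windows with Acot3. Acot12 overlaps the antisense gene 4833422C13Rik. The library kit does not mark strand, so the reads of such overlapping stretches cannot be told apart.

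The libraries held 27055469 to 30766437 reads assigned to genes, recovered from the deposited values. Levels are given as CPM, the reads of a gene scaled to the same total in every library, and, where genes are set against each other, as CPM per kilobase of exon. A fold change is the difference in log2(normalized count + 1) within 1 deposited table, and a gene was called changed at an adjusted p (limma, Benjamini-Hochberg over all genes of the table) under 0.05 with a log2 fold change beyond 1 in either direction. On the CPM scale the median log2 fold change of all genes was -0.08 for WT Cold against WT RT and -0.12 for GCN2 KO Cold against WT Cold, where the scale of the tables put both at 0.00, so small differences in CPM lean downward in WT Cold against WT RT and again in GCN2 KO Cold against WT Cold. All 10 brown adipocyte markers were listed and their summed level was 18620 to 20529 CPM in WT RT, 25033 to 27090 in WT Cold and 29730 to 30129 in GCN2 KO Cold. The targeted gene, Eif2ak4, which encodes GCN2, was at 12.1 ± 0.458 CPM (SD, n = 3) in the GCN2 KO Cold libraries, 7.70 ± 1.07 in WT Cold and 12.2 ± 1.04 in WT RT, so the transcript count does not check that label and the name stands for the label. The column codes of the WT RT libraries begin with other letters than those of the cold libraries, and any difference in their handling cannot be told apart from temperature.

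Per kilobase of exon, the family in BAT at room temperature was led by the type II genes Acot13 and Acot11. Their levels in WT RT were 114 ± 8.03 and 86.6 ± 20.4 CPM per kb (SD, n = 3 here and below). Acot2 followed at 36.8 ± 0.945, Acot9 at 22.8 ± 1.51, Acot7 at 11.1 ± 1.11 and Acot1 at 5.38 ± 1.15. Acot12, Acot4, Acot5 and Acot3 stood below 2, with Acot5 at 0.416 ± 0.108 and Acot3 at 0.196 ± 0.0983. No neighbours in this order had overlapping ranges in WT RT. In WT Cold, Acot13 kept the first place at 107 ± 4.94 CPM per kb. The next 3 genes, Acot2 at 29.4 ± 7.33, Acot11 at 29.2 ± 3.32 and Acot9 at 25.6 ± 0.992, had overlapping ranges. Acot1 was next at 17.7 ± 5.82, and Acot5, at 8.61 ± 1.28, overlapped Acot7 at 9.27 ± 0.727. In GCN2 KO Cold the order was Acot13 at 122 ± 12.3, Acot11 at 33.2 ± 0.163, then Acot2 and Acot9 with overlapping ranges, then Acot1 and Acot7 with overlapping ranges, and Acot5 at 5.99 ± 0.423. Dividing by coding length instead set Acot11 above Acot13 in WT RT, at 280 against 202 CPM per coding kb.

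The make-up of the family can be read as shares, given here with no test. Acot11 gave 30.7 ± 6.18% of the 10 genes' summed CPM per kb in WT RT, 12.6 ± 0.95% in WT Cold and, under GCN2 KO Cold, 14.3 ± 1.54%. The peroxisomal trio Acot3, Acot4 and Acot5 gave 0.673 ± 0.141%, 4.93 ± 0.600% and 3.63 ± 0.470%. Acot1 gave 1.93 ± 0.478%, 7.60 ± 2.32% and 4.66 ± 2.05%. Acot13 held the largest share in all 9 libraries, from 37.6% to 53.0%. By coding length the trio gave 1.23 ± 0.234%, 5.19 ± 0.512% and 4.09 ± 0.292%, and Acot11 gave 44.6 ± 7.27%, 20.2 ± 1.41% and 23.0 ± 2.497%. On that scale Acot11 held the largest mean share in WT RT, above Acot13 at 32.7 ± 4.90%, while Acot13 stayed first in both cold groups. The sum over all 10 genes was 280 ± 10.5 CPM per kb in WT RT, 232 ± 10.4 in WT Cold and 233 ± 24.6 in the GCN2 KO Cold libraries.

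**Figure D2:**
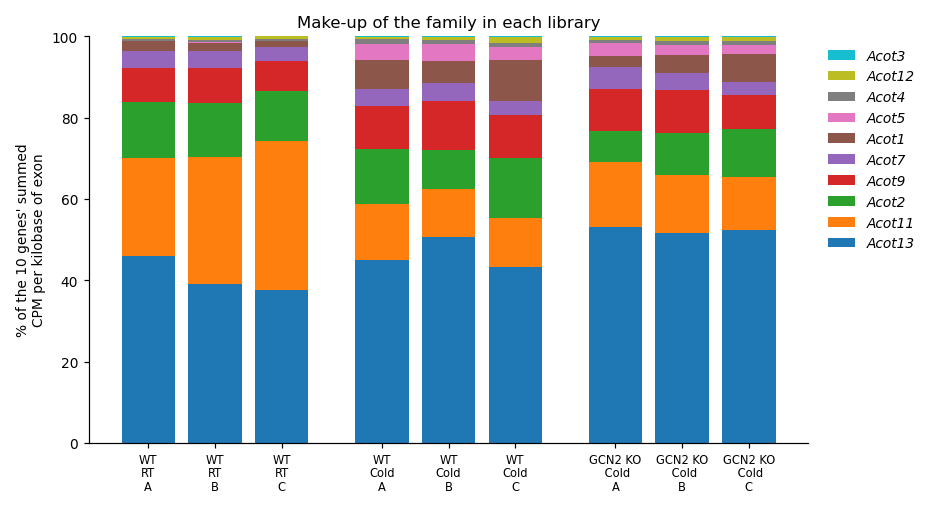
Stacked bars of the percentage that each gene gives of the 10 genes' summed CPM per kilobase of exon, 1 bar per library, 3 libraries per group. Acot11 (orange) takes 24.3% to 36.6% of each WT RT bar and 11.97% to 16.0% of each cold bar, and the Acot5 segment (pink) is at most 0.189% in WT RT and 2.18% to 4.13% in the cold.

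Cold against room temperature in wild-type mice asks which genes of BAT respond to acute cold. Acot5, a peroxisomal enzyme for medium-chain acyl-CoA, was nearly silent at room temperature and clearly present in the cold. WT RT libraries held 15, 25 and 18 reads of it, or 0.493, 0.813 and 0.591 CPM. WT Cold libraries held 421, 398 and 313 reads, or 14.5, 13.8 and 10.9 CPM. Every WT Cold library lay far above every WT RT library, with a log2 fold change of 4.40 ± 0.23 (SE), or 21.1-fold. Leaving out any library kept the log2 fold change between 4.23 and 4.57.

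Acot4, a peroxisomal enzyme known for succinyl-CoA and other dicarboxylic acyl-CoAs, read 6.73, 10.4 and 8.47 CPM in WT RT and 19.4, 15.0 and 15.6 CPM in WT Cold. The groups did not overlap, and the log2 fold change was 1.06 ± 0.18, close to the threshold of 1. It fell under that threshold without WT Cold library A (0.96), without WT RT library A (0.89) and on the CPM scale (0.98). Acot3, a peroxisomal enzyme for long-chain acyl-CoA, was near the floor of detection, with 9 to 29 reads per WT RT library and 20 to 48 in WT Cold, and its groups overlapped (log2 fold change 0.84 ± 0.50).

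The cytosolic Acot1 and the mitochondrial Acot2 are the pair alike at 95.5% of their coding bases. Acot1 read 25.1, 21.97 and 16.2 CPM in WT RT and 68.7, 47.2 and 92.7 CPM in WT Cold, with no overlap and a log2 fold change of 1.77 ± 0.25. Acot2 read 80.0, 83.1 and 79.1 CPM in WT RT and 71.0, 46.3 and 76.6 CPM in WT Cold, and its log2 fold change was -0.27 ± 0.18. Its WT RT libraries were tight and its WT Cold libraries wide, and each WT Cold library was under each WT RT library on the CPM scale, while the groups overlapped on the scale of the table. Within a library, the ratio of Acot1 reads to Acot2 reads needs no scaling. It was 0.313, 0.265 and 0.205 in WT RT, 0.967, 1.02 and 1.21 in WT Cold, and 0.645, 0.746 and 1.03 in GCN2 KO Cold, so the WT RT libraries lay below all cold libraries.

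Acot11 was the member lower in the cold by the most. Its 3 WT RT libraries read 396, 536 and 642 CPM, a wide spread, and its WT Cold libraries read 199, 160 and 172 CPM. The groups did not overlap and the log2 fold change was -1.46 ± 0.18, or 0.363-fold. Acot13, the other abundant type II gene, read 91.7, 82.0 and 80.9 CPM against 80.7, 82.9 and 75.7 CPM, with a log2 fold change of -0.00 ± 0.08. Acot13 thus moved by less than the spread between its replicates.

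Acot9, a mitochondrial enzyme, differed little, at 51.7, 55.2 and 48.3 CPM in WT RT and 58.6, 60.2 and 55.7 CPM in WT Cold. The groups did not overlap, but the log2 fold change of 0.26 ± 0.07 was far from the threshold. Acot7, a cytosolic enzyme best known from brain, read 20.9 to 25.5 CPM in WT RT and 17.9 to 20.7 CPM in WT Cold (log2 fold change -0.17 ± 0.10), with overlap on the scale of the table. By the calls of this comparison, 3 of the 10 members were higher (Acot1, Acot4 and Acot5) and 1 was lower (Acot11), 4 of 10 in all. Among all 16679 genes tested, 8.14% were called, 2.99% higher and 5.15% lower. Since this comparison helped choose the members, nothing is read from their count. The median log2 fold change of the 10 was 0.19, against 0.00 over all genes tested.

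**Figure D3:**
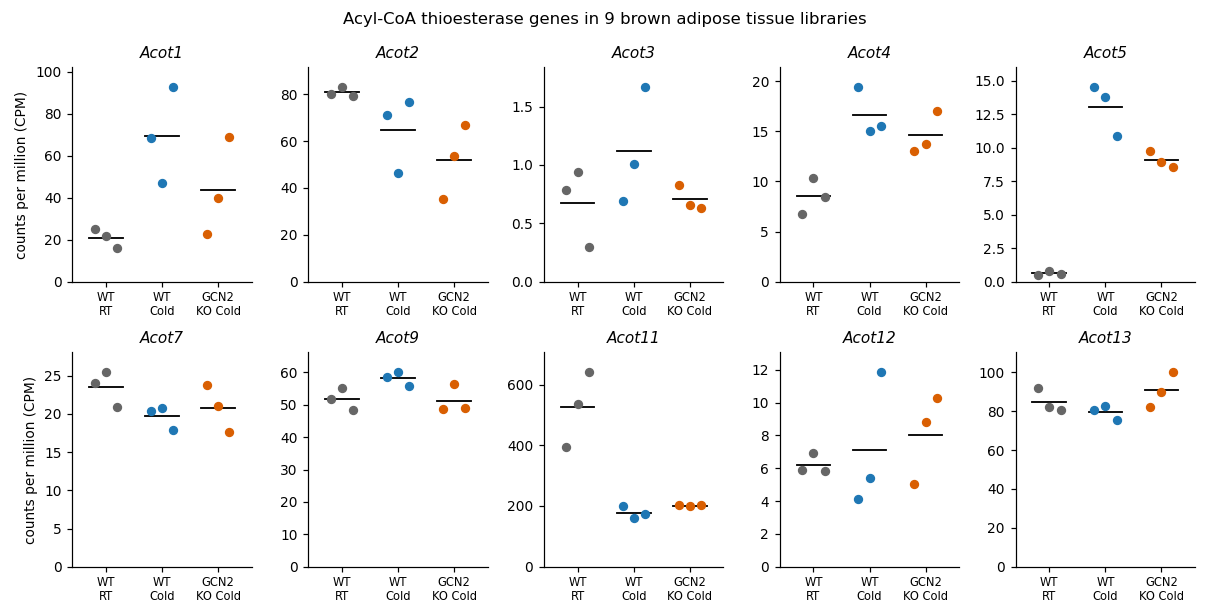
CPM of each of the 10 genes in the 9 libraries, 1 point per library in the order A, B, C, with a horizontal line at the mean of each group, and a linear axis from 0 in each panel. Acot5 goes from under 1 CPM in every WT RT library to between 8.54 and 14.5 CPM in every cold library, and Acot11 from between 396 and 642 to between 160 and 202 CPM.

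Acot12 encodes a cytosolic acetyl-CoA thioesterase best known from liver. It read 5.91, 6.96 and 5.81 CPM in WT RT, 4.15, 5.39 and 11.9 CPM in WT Cold and 5.03, 8.80 and 10.3 CPM in GCN2 KO Cold. WT Cold library C was the highest of all and library A of WT Cold the lowest. The summed CPM of 5 hepatocyte markers (Alb, Apoa2, Ttr, Serpina1a and Cps1, all of them listed) was 3076, 2338 and 2522 in WT RT, 1083, 1926 and 5037 in WT Cold and 1688, 3272 and 3643 in GCN2 KO Cold. The libraries of each cold group thus stood in the same order for Acot12 and for these markers. Those of WT RT did not, with Acot12 highest in library B (6.96 CPM), where the marker sum was lowest (2338). The part of the markers in the Acot12 values was not tested. The log2 fold change of Acot12 for WT Cold against WT RT was 0.13 ± 0.36, and it turned to -0.32 without WT Cold library C. Acot1 and Acot2 were also lowest in library A and highest in library C of GCN2 KO Cold, while in WT Cold both were lowest in library B.

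**Figure D4:**
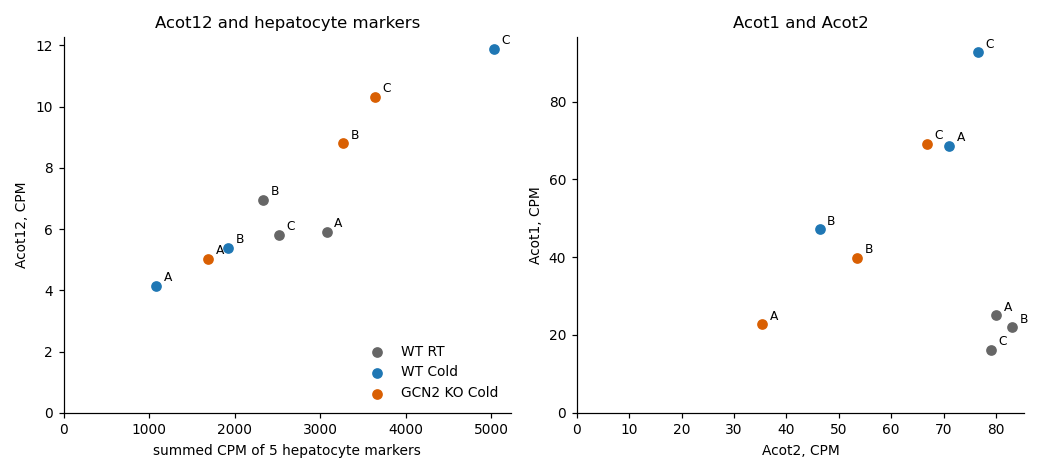
Left, Acot12 against the summed level of 5 hepatocyte markers, and right, Acot1 against Acot2, all in CPM, with 1 labelled point per library. Acot12 is highest where the marker sum is highest (11.9 CPM at 5037), and the 3 WT RT points stand apart on the right, near 80 CPM of Acot2 with at most 25.1 CPM of Acot1.

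GCN2 KO Cold against WT Cold asks which of these transcripts depend on GCN2 in the cold, and here the members were tested. The test uses the same WT Cold and GCN2 KO Cold libraries as the comparisons that chose the family, so its p-values are not independent of that choice, and for Acot5, chosen for its level in the cold, the difference is given with no test. No member was called, against 42 of 16312 genes (0.257%) in all, a count that dropped to between 3 and 22 when any 1 library was left out. DESeq2 and edgeR on the recovered reads also called 0 members, and of the 9 members other than Acot5, 2 had an unadjusted limma p under 0.05 (Acot11 and Acot13), beside 15.3% of all genes tested. Acot5 was lower, at 9.80, 8.97 and 8.54 CPM against 14.5, 13.8 and 10.9 CPM, with no overlap. Its log2 fold change was -0.40 ± 0.14 (SE). Acot11 was higher, at 202, 200.01 and 202 CPM against 199, 160 and 172 CPM, with a log2 fold change of 0.31 ± 0.08 (95% CI 0.11 to 0.51, limma adjusted p = 0.172). Acot13 was higher, at 82.1, 89.9 and 100.3 CPM against 80.7, 82.9 and 75.7 CPM, with a log2 fold change of 0.30 ± 0.09 (95% CI 0.08 to 0.52, limma adjusted p = 0.199). On the CPM scale the Acot13 groups overlapped, and on the scale of the table they did not.

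The widest interval among the members was that of Acot12 (log2 fold change 0.38, 95% CI -0.64 to 1.39), followed by Acot1. Leaving out 1 library moved the Acot12 value to between 0.04, without WT Cold library A, and 0.83, without WT Cold library C. Acot1 read 22.8, 39.9 and 69.1 CPM in GCN2 KO Cold, a 2.95-fold range in CPM + 1. The log2 fold change of Acot1 was -0.63 ± 0.41 (95% CI -1.59 to 0.32, limma adjusted p = 0.522). Leaving out library A of GCN2 KO Cold, the lowest, moved this value to the upper end of its leave-one-out range of -1.04 to -0.23. Acot2 read 35.3, 53.5 and 66.8 CPM and differed by -0.22 ± 0.27, which turned to 0.04 without GCN2 KO Cold library A. Acot4 differed by -0.07 ± 0.15, Acot9 by -0.07 ± 0.09 and Acot7 by 0.19 ± 0.13, with 95% CIs inside -0.42 to 0.48. The Acot4 value turned to 0.02 without WT Cold library A and to 0.01 without GCN2 KO Cold library A. Acot3, with 17 to 23 reads per GCN2 KO Cold library and 20 to 48 per WT Cold library, differed by -0.45 ± 0.38.

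Skeletal muscle markers were lower by estimate in this comparison. Their summed level was 339 to 1395 CPM in GCN2 KO Cold against 2370 to 3974 CPM in WT Cold, and all 15 had a negative log2 fold change, and an unadjusted limma p under 0.05, beside 15.3% of all genes. Limma called 1 of them, Myh7, a slow myosin heavy chain (log2 fold change -3.34, adjusted p = 0.0483), DESeq2 called 5 (Myh7, Mb, Myh1, Myh2 and Tnnt1) and edgeR 0, with Myh7 at an adjusted p of 0.0533. All 10 brown adipocyte markers had a positive log2 fold change (median 0.24), all 8 macrophage markers a negative one (median -0.54, with sums of 136 to 205 CPM against 185 to 277 CPM), all 6 endothelial markers a negative one (median -0.16) and all 5 hepatocyte markers a positive one (median 0.52). Limma called 0 of each of these lists, with 5, 3, 2 and 0 at an unadjusted p under 0.05. The part of these differences in the values of the members was not tested. In bulk tissue, fewer cells of a type and less RNA per cell cannot be told apart.

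GCN2 KO Cold against WT RT shares the WT RT libraries with the first comparison and differs in both genotype and temperature, so the values are set side by side. Acot5 was 4.00 ± 0.23 above WT RT on the log2 scale here and 4.40 ± 0.23 in WT Cold. Acot11 was at -1.15 ± 0.17 here and at -1.46 ± 0.18 there, and Acot4 at 0.99 ± 0.18 and 1.06 ± 0.18. Acot1 was at 1.14 ± 0.35 here and 1.77 ± 0.25 there. Acot2 was at -0.48 ± 0.20 here, with each GCN2 KO Cold library under each WT RT library, and at -0.27 ± 0.18 there. Acot13 was at 0.30 ± 0.10 here and -0.00 ± 0.08 there. The calls were 2 of 10 higher (Acot1 and Acot5) and 1 lower (Acot11), beside 10.6% of 16560 genes in all, 3.01% higher and 7.58% lower, and again nothing is read from the count. Markers moved here too, with 13 of 15 skeletal muscle and 6 of 8 macrophage markers called lower by limma and 4 of 10 brown adipocyte markers called higher. Their part in the values of the members was not tested. When 1 library was left out, Acot1 kept its call without GCN2 KO Cold library A (1.55). It lost the call without GCN2 KO Cold library B (1.14) or C (0.74) and without WT RT library A (1.27), B (1.16) or C (0.995). The Acot1 call was also lost on the CPM scale (0.94), in the fit of all 9 libraries on CPM (0.94) and with no mean-variance trend (1.14). Acot11 lost its call only without WT RT library C (-0.96). Acot4, just under the threshold, passed it without GCN2 KO Cold library A (1.07) or B (1.03) and without WT RT library B (1.12) or C (1.03).

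**Figure D5:**
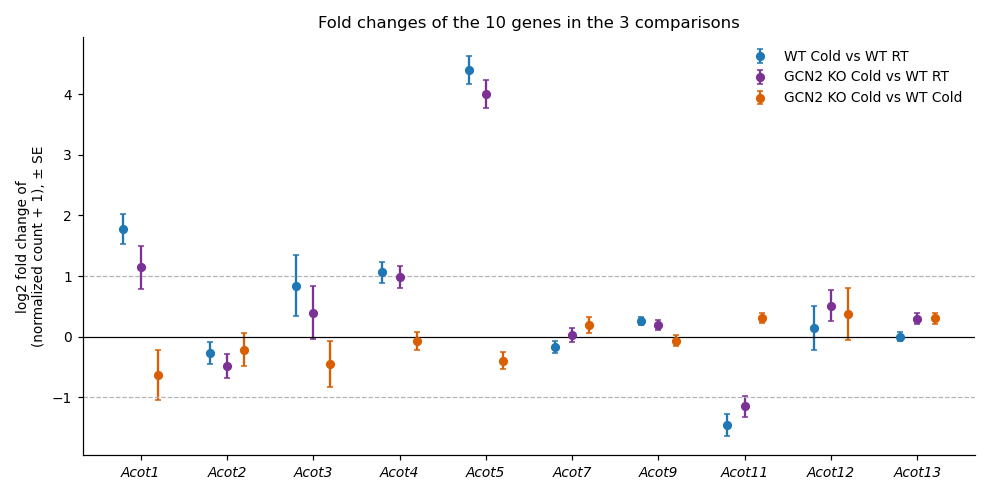
Log2 fold change of log2(normalized count + 1) with its SE for the 10 genes in the 3 comparisons, n = 3 libraries a group, with dashed lines at the fold threshold of 1 in both directions. Acot5 lies at 4.40 and 4.00 against WT RT, Acot11 at -1.46 and -1.15, and all 10 genes lie between -0.63 and 0.38 for GCN2 KO Cold against WT Cold.

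Other genes that act on acyl-CoA, namely thioesterases and the acyltransferases Baat, Acnat1 and Acnat2, were read in the same fits. The list held 9 genes, of which 7 were tested. In WT Cold against WT RT, 2 of 7 were called higher and 0 lower, beside 2.99% and 5.15% of all genes. Them4, a mitochondrial thioesterase also known as a binding partner of AKT, went from 299 to 748 normalized counts (log2 fold change 1.33 ± 0.13, limma adjusted p = 0.000537). Acot6, the last gene of the chromosome 12 row and peroxisomal in mice, went from 169 to 381 (1.16 ± 0.16, adjusted p = 0.00222). Acot8, the broad peroxisomal thioesterase, differed by 0.52 ± 0.12 and was not called for its size (adjusted p = 0.0171). In GCN2 KO Cold against WT Cold 0 of 7 were called by limma, with 1 at an unadjusted p under 0.05 (Acot8, 0.30 ± 0.09, adjusted p = 0.199). Baat, the liver enzyme that conjugates bile acids, read 2.83, 6.01 and 15.1 CPM in WT Cold, the library order of the hepatocyte markers. Them6, Acnat1 and Acnat2 were not called, with log2 fold changes of -0.51 ± 0.25, -0.27 ± 0.39 and -0.18 ± 0.65 in WT Cold against WT RT.

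Acyl-CoA synthetases run the opposing step. Of 19 tested, limma called 0 higher and 1 lower in WT Cold against WT RT, with a median log2 fold change of -0.04. With no fold threshold 8 had an adjusted p under 0.05, among them Acss1, which makes acetyl-CoA from acetate in mitochondria (0.99 ± 0.11, adjusted p = 0.000986), just under the threshold. At an unadjusted p under 0.05 there were 10 of 19, beside 40.9% of all genes tested. The gene called lower was Acss2, which makes acetyl-CoA from acetate in the cytosol and nucleus, from 13729 to 2565 normalized counts (-2.42 ± 0.09, limma adjusted p = 2.12e-05). Of 12 genes of coenzyme A synthesis and breakdown, 0 were called in WT Cold against WT RT. There 7 had an unadjusted limma p under 0.05, beside the same 40.9%, among them Pank1, the kinase that starts coenzyme A synthesis (0.61 ± 0.12, adjusted p = 0.0097). In GCN2 KO Cold against WT Cold, 0 of 19 and 0 of 12 were called, with 4 and 0 at an unadjusted p under 0.05, again beside 15.3% of all genes.

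PPAR target genes outside the family were read as a further list. Of 30 tested in WT Cold against WT RT, limma called 1 higher and 0 lower, beside 2.99% and 5.15% of all genes. The median log2 fold change was 0.01, and 8 had an unadjusted limma p under 0.05, beside 40.9% of all genes. With no fold threshold 5 had a limma adjusted p under 0.05. They were Fabp3, Mlycd (0.93 ± 0.12), Cd36 (0.62 ± 0.10) and Slc25a20 (0.25 ± 0.08), all higher, and Hsd17b4 (-0.44 ± 0.11). The 1 called was Fabp3, a fatty acid carrier, from 14793 to 48538 normalized counts (1.70 ± 0.12, limma adjusted p = 0.000208). DESeq2 also called Fgf21, a secreted hormone (log2 fold change 2.35, adjusted p = 0.00411), which limma (1.66 ± 0.74, adjusted p = 0.131) and edgeR (2.34, adjusted p = 0.0713) did not. Its WT Cold libraries read 1.28, 1.11 and 8.55 CPM and its WT RT libraries 0.558 to 1.05 CPM, so library C of WT Cold stood apart. Of 12 receptors and partners, limma called 1 higher and 0 lower, beside the same 2.99% and 5.15%. The gene called was the coactivator Ppargc1a (2.70 ± 0.26, adjusted p = 0.00054). By sign 10 of the 12 were higher, and with no fold threshold 5 had a limma adjusted p under 0.05. Beside Ppargc1a they were Esrra (0.69 ± 0.12), Ppard (0.60 ± 0.08) and Ncoa1 (0.57 ± 0.09), all higher, and Ppara, which was lower. Ppara itself, the receptor, stood at 123 ± 2.90 CPM in WT RT, 81.9 ± 6.84 in WT Cold and 58.7 ± 11.3 in the GCN2 KO Cold libraries (log2 fold change -0.51 ± 0.08 for WT Cold against WT RT, adjusted p = 0.0045, under the fold threshold). Of 7 lipolysis genes, limma called 1 higher and 0 lower, beside the same shares of all genes. The gene called was G0s2, an inhibitor of the lipase ATGL (1.31 ± 0.14, adjusted p = 0.000874). With no fold threshold 4 of the 7 had a limma adjusted p under 0.05. Beside G0s2 they were Abhd5, which was higher (0.44 ± 0.07), and Lipe (-0.82 ± 0.12) and Plin1 (-0.34 ± 0.09), which were lower. In GCN2 KO Cold against WT Cold, limma called 0 of the 30, 0 of the 12 and 0 of the 7. There 7, 3 and 1 of them had an unadjusted p under 0.05, beside the 15.3% of all genes given above.

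Among brown adipocyte markers, 4 of 10 were called higher in WT Cold against WT RT, beside 2.99% of all genes. They were Dio2, the deiodinase that makes active thyroid hormone (3.63 ± 0.24), Ppargc1a, Elovl3 (1.17 ± 0.28) and Ucp1, the uncoupling protein (1.02 ± 0.16). The list did not move 1 way, since 3 of the 10 had a negative log2 fold change. These were Prdm16 (-0.51 ± 0.25), Plin1 (-0.34 ± 0.09) and Adipoq (-0.17 ± 0.14), none of them called. Macrophage markers moved too, with 2 of 8 called lower, beside 5.15% of all genes, Cd68 (-1.96 ± 0.28) and Adgre1 (-1.54 ± 0.22), and a summed level of 350 to 528 CPM in WT RT and 185 to 277 CPM in WT Cold. None of the 15 skeletal muscle, 6 endothelial, 8 nerve or 5 hepatocyte markers was called there by limma, with 2, 3, 1 and 0 at an unadjusted p under 0.05, beside 40.9% of all genes. The part of the macrophage difference in the values of the members was not tested.

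Genes outside the family whose levels ran most like those of Acot5 across the 9 libraries were Picalm, Socs2, Adcy3, Jdp2 and Noct. Their Pearson r of log2(CPM + 1) with Acot5 was 0.997, 0.995, 0.993, 0.992 and 0.992, the highest among 14021 genes compared. Noct, a rhythmic phosphatase, read 51.9 ± 6.0 CPM in WT RT, 314 ± 13.5 in WT Cold and 286 ± 13.8 in the GCN2 KO Cold libraries. Adcy3, an adenylyl cyclase, read 126 ± 11.8, 516 ± 13.5 and 408 ± 30.5 CPM. For Acot11 the nearest genes were Acsf3, a mitochondrial malonyl-CoA synthetase, with an r of 0.992, Pgd, BC017158, Tkt and Klhl5. Pgd and Tkt, both enzymes of the pentose phosphate pathway, read 754 ± 144 and 3263 ± 442 CPM in WT RT and 219 ± 17.7 and 852 ± 157 CPM in WT Cold. These values describe 9 libraries in 3 groups that share scaling and depth, and r was not split into parts between and within groups.

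The sequence before the start site was read for the members, to show which short motifs lie there. RefSeq promoters of GRCm38, 250 bases before to 50 after the start, were at hand for 9 of the 10 members, and Acot13 had no entry. Searched on both strands were the direct repeat of AGGTCA with 1 base between (PPAR with its partner RXR), TCAAGGTCA (estrogen-related receptor, which contains AGGTCA), TGACGTCA (cAMP response element) and CACGTG (E-box). They occur in 0.0396%, 0.423%, 1.79% and 7.15% of 32851 mouse promoters. Among the members, CACGTG was in the promoter of Acot4, 66 bases before the start, and at 1 of the 2 starts of Acot11, 154 bases before it, and the other 3 motifs were in none. The 6-letter AGGTCA alone, a search added after these results, was in the promoters of Acot3, Acot4, Acot5 and Acot12, beside 16.3% of all promoters. The 250 bases before the starts of Acot5 and Acot4 are shown for the pair of peroxisomal members whose WT Cold and WT RT libraries did not overlap, with CACGTG and AGGTCA, or its reverse complement TGACCT, in capitals. A second AGGTCA of Acot5 begins 2 bases before the start and crosses it, so it is cut off by the end of the printed stretch and its first 2 letters are in lower case.
Acot5 at chr12:84069075-84069324, plus strand: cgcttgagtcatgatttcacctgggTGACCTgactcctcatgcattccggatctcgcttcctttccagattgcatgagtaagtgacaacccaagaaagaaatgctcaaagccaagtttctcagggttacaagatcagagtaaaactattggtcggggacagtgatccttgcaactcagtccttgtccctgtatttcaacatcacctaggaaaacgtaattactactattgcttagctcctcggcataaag
Acot4 at chr12:84038129-84038378, plus strand: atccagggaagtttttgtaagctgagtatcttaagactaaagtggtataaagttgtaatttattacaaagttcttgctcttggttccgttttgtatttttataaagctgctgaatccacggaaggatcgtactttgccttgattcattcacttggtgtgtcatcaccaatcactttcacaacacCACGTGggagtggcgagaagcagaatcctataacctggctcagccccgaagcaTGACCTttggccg
These matches describe the letters in this window and nothing about binding.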

How the data were processed

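Total RNA of BAT from 9 mice was sequenced after poly(A) selection, as paired reads of 150 bases. The authors trimmed reads with Trimmomatic 0.36, mapped them with STAR 2.5.2b and counted unique reads in exons with featureCounts (Subread 1.5.2). Their processing notes name GRCm39. The deposited signal values are counts divided by 1 size factor per library, set by the authors within each of 3 tables of 2 groups. Whole reads were recovered for 100% of 297306 values (tolerance 0.001). The authors' own log2 fold changes and p-values, also deposited, were not used. No column belonged to another sample.

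The files hold normalized counts rather than counts, so limma 3.58.1 (R 4.3.3, mean-variance trend) was fitted to log2(normalized count + 1) within each table, with Benjamini-Hochberg adjustment over all its genes. DESeq2 1.42.0 and edgeR 4.0.16 on recovered reads, CPM scaling, other pseudocounts, a filter on low values and leaving out each library were alternatives. The fits were tested on simulated data. Columns carry codes, not replicate numbers, and group came from the tables in which each code occurs. The title of 1 GCN2 KO Cold sample names both GCN2 KO and WT, and its genotype label set its group. p-values measure the spread between 3 libraries a group. Exon lengths (16572 of 16592 genes matched by gene ID) and coding sequences came from GENCODE M21 (GRCm38), promoters from RefSeq, and coding sequences were aligned with Biopython.

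The members, gene lists, motifs and tests were chosen with earlier results of these data known. Named are all members and every listed gene of other thioesterases and acyltransferases. From each other list the called genes with the 4 largest changes in WT Cold against WT RT are named (mean normalized count at least 50). Named too are any called in GCN2 KO Cold against WT Cold, the 5 genes most correlated with the members of largest rise and fall (mean CPM at least 1), and Eif2ak4. Pank1, Ppara, Fgf21, Acss1, Mb, Myh1, Myh2 and Tnnt1 were named after their values were seen. The same holds for Esrra, Ncoa1, Ppard, Mlycd, Cd36, Slc25a20, Hsd17b4, Abhd5, Lipe, Plin1, Prdm16 and Adipoq. One result that this rule would name is not reported here.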

Additional observations from a re-analysis of the deposited data

How the results depend on the processing

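No paired analysis was possible because the columns carry library codes and no replicate numbers. Across the 3 comparisons, 400 member fold changes under an alternative kept their direction where called and their side of the threshold, 13 lost the call and 4 gained it, all of them in Acot1, Acot4 or Acot11, and none reversed a call. Members called ranged from 3 to 4 in WT Cold against WT RT and from 2 to 4 in GCN2 KO Cold against WT RT when a library was left out, and stayed at 0 in GCN2 KO Cold against WT Cold. With no fold threshold, genes called were 4624, 66 and 5657 for WT Cold against WT RT, GCN2 KO Cold against WT Cold and GCN2 KO Cold against WT RT, and 5, 0 and 5 members were called. For GCN2 KO Cold against WT Cold, where 42 genes were called, DESeq2 called 209, the fit with no trend 6, the fit of all 9 libraries on CPM 189, and leaving out a library left 3 to 22. CPM scaling moved the split of called genes from 498 higher and 859 lower to 406 and 1021 in WT Cold against WT RT, and from 499 and 1255 to 326 and 1769 in GCN2 KO Cold against WT RT, with the median of all genes at -0.19 in the latter. There Acot9 turned from 0.19 to -0.01 and Acot7 from 0.03 to -0.18. By coding length, 4, 4 and 7 of 10 members kept their rank by level in WT RT, WT Cold and GCN2 KO Cold, and with no length 4, 3 and 5. The cause of these changes was not tested. Depth limits Acot3, at 9 to 48 reads per library, and Acot5 in WT RT.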

Other observations

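Some genes of the lists stood in the library order of the hepatocyte markers within both cold groups, namely 2 of 7 other thioesterases and acyltransferases, 3 of 19 acyl-CoA synthetases, 0 of 12 genes of coenzyme A synthesis and breakdown, 4 of 30 PPAR target genes, 1 of 12 PPAR receptors and partners and 0 of 7 lipolysis genes, beside 4.41% of 16592 genes. Creb3l3, a liver transcription factor, read 4.28, 7.51 and 18.2 CPM in WT Cold and 9.22, 14.5 and 15.9 CPM in GCN2 KO Cold. Acsm1, a medium-chain acyl-CoA synthetase, read 3.90, 9.28 and 19.3 CPM and 7.09, 16.6 and 19.4 CPM. Acnat2, an acyltransferase beside Baat in function, read 0.449, 0.938 and 3.30 CPM and 0.651, 1.81 and 2.11 CPM. Cyp4a14 read 16.3, 8.31 and 58.3 CPM in WT Cold and did not keep that order. The 5 hepatocyte markers were at 5037 CPM in WT Cold library C and 1083 CPM in library A, and their part in these values was not tested. Apart from Acnat2, these genes were named after their values were seen.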
